A study of Mus musculus with 6 samples.

Results

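The expression of 9 genes that set the balance between clotting and clot removal at the vessel wall was followed in endothelial cells sorted from LN. The genes were Vwf, F8, F5, Thbd, Procr, Tfpi, Tfpi2, Plat and Plau, chosen by their symbols as genes of coagulation and fibrinolysis in endothelium, and they had 15 probe sets of their own among 45037 probe sets for 18193 genes. The cells came from pooled skin-draining and mesenteric LN of 6-week-old C57BL/6 mice, were depleted of CD45+ cells with magnetic beads and were then sorted by gp38 and CD31. For each sample 20 ng of RNA underwent 2 rounds of linear amplification before hybridization to a mouse genome GeneChip array, and the deposited values are log2 RNA abundances after GCRMA normalization. The number of mice behind a sample is not given in the sources used here.

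There were 3 arrays labelled as double positive (gp38+ CD31+, the gate by which the study sorted LEC) and 3 labelled CD31+ (the gate of its BEC). The cell type words on the same labels point the other way, with BEC on the double-positive arrays and LEC on the CD31+ arrays, so the arrays are named here by their gate alone. Every difference is the double-positive mean minus the CD31+ mean on the log2 scale. Reading the labels by the cell type word would exchange the group names and leave each value as it is. Of 7 pan-endothelial markers limma called 0 in either direction (0 higher and 1 lower, Esam, by an unadjusted p under 0.05). Of 7 lymphatic endothelial markers, limma called 5 higher and 0 lower on the double-positive arrays, and of 5 blood endothelial markers 0 higher and 4 lower. Pecam1, the gene of CD31, had a mean of 2.41 on the double-positive and 2.48 on the CD31+ arrays, close to the common minimum of all arrays, 2.39. The double-positive arrays were also brighter in general. For the 3984 genes whose mean reached 5, the median difference was 0.73, and subtracting each array's median over its bright probe sets (centring) lowered every difference by 0.68. In pools of sorted cells, fewer cells that express a gene and less of its RNA per cell cannot be told apart.

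Blood is kept fluid in healthy vessels because endothelium holds both sides of haemostasis in check. Von Willebrand factor (Vwf) tethers platelets and carries coagulation factor VIII (F8) in plasma, and factors VIII and V (F5) are the cofactors that speed the formation of thrombin. Thrombomodulin (Thbd) and the endothelial protein C receptor (Procr) turn thrombin towards the activation of protein C, an anticoagulant, while tissue factor pathway inhibitor (Tfpi) blocks the first step of coagulation. Tissue-type (Plat) and urokinase-type (Plau) plasminogen activators form plasmin, which dissolves fibrin, and Tfpi2 encodes a related inhibitor of plasmin and other proteases. Lymph also carries clotting factors, and lymphatic endothelium is known as a site of factor VIII production.

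The 9 genes split into 3 patterns. Plat, Procr and F8 lay about 3 to 4 log2 units higher on the double-positive arrays, Vwf lay about 3 lower, and the others differed by less than 1 at their brightest probe sets. At 5% FDR over all 45037 probe sets, limma called 1 of the 9 genes higher, Plat, and 0 lower, while 5 higher and 1 lower had an unadjusted p under 0.05. The same test called 1.06% of all genes higher and 0.225% lower, and 14.4% were higher and 2.44% lower by the unadjusted p. When testing was limited to the 6088 probe sets that reached 5 on the log2 scale on 3 or more arrays, 7 of the 9 genes remained in the test, of which 4 passed as higher (Plat, Procr, F8 and Tfpi) and 1 as lower (Vwf), against 36.0% of 4213 genes higher and 4.34% lower. With this filter and centred arrays, 3 passed as higher (Plat, Procr and F8) and 2 as lower (Vwf and Tfpi2), against 13.9% and 10.3% of genes. The brightest probe sets of 6 genes (Vwf, F8, Thbd, Procr, Tfpi and Plat) were at 5 or more on all 6 arrays, so none of them was kept through 1 group alone. The median difference of the 9 genes was 0.71. It includes F5 and Plau, which lay near the common minimum, so it is not like for like with the 0.73 of genes whose mean reached 5.

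**Figure D1:**
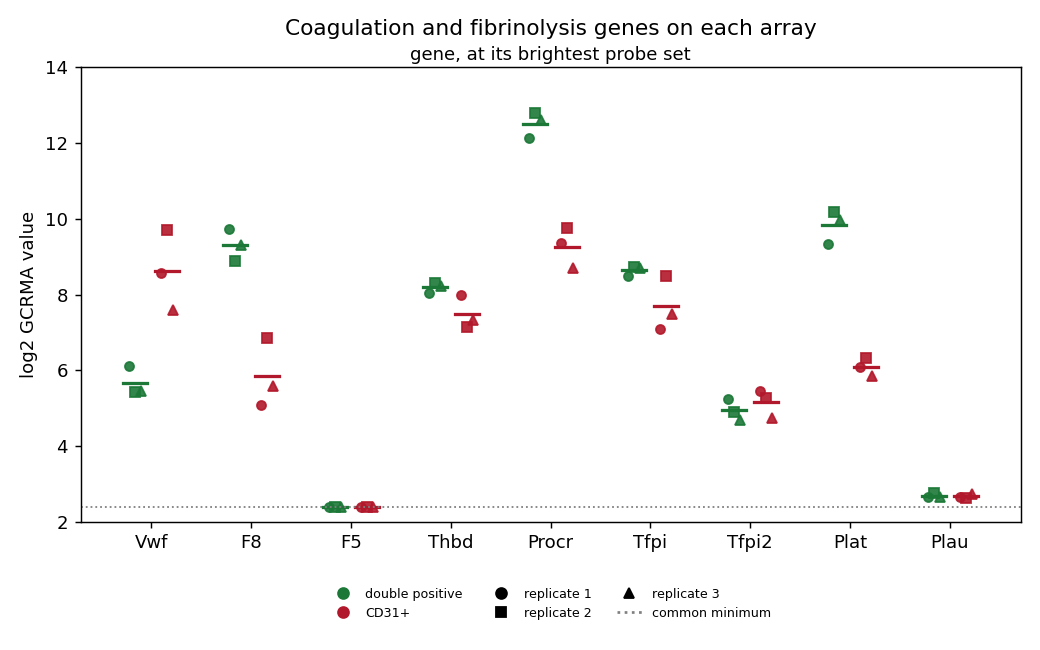
Log2 GCRMA values of the 9 coagulation and fibrinolysis genes on each of the 6 arrays, each gene at its brightest probe set, with points for arrays, marker shapes for replicate numbers and bars for group means. Heights should be compared within a gene only, and F8, Procr and Plat lie higher on the double-positive arrays, Vwf lies lower, and F5 and Plau lie near the common minimum of 2.39 (dotted line).

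The 2 partners of the factor VIII complex of plasma lay on opposite sides of the comparison. Vwf had log2 values of 6.11, 5.43 and 5.45 on double-positive arrays 1 to 3 and 8.56, 9.71 and 7.59 on CD31+ arrays 1 to 3. All double-positive values were below all CD31+ values, and CD31+ replicate 2 was the brightest. The means were 5.67 ± 0.388 and 8.62 ± 1.06 (SD, n = 3 each), a difference of -2.96 (95% confidence interval -4.64 to -1.28, limma, adjusted p = 0.211). This is 7.77-fold on the linear scale. With the filter on dim probe sets Vwf passed as lower (limma, adjusted p = 0.00291), and centring widened the difference to -3.64 (limma with the filter, adjusted p = 9.19e-05). Selp, which encodes the P-selectin stored with von Willebrand factor in endothelial granules, had 7.95, 7.66 and 7.22 on the double-positive and 8.45, 9.48 and 8.83 on the CD31+ arrays. Its groups did not overlap either, and its difference of -1.31 passed with the filter (limma, adjusted p = 0.0217) but not over all probe sets (limma, adjusted p = 0.331). Of 6 genes of high endothelial venules, 0 passed over all probe sets. By an unadjusted p under 0.05 in limma 2 were lower and 0 higher, beside 2.44% and 14.4% of all genes. With the filter 4 remained in the test and 2 passed as lower, Selp and Ackr1, beside 4.34% of all filtered genes. Ackr1, a chemokine receptor gene of venules, had a mean of 3.91 on the double-positive and 6.04 on the CD31+ arrays. Its difference was -2.14 (limma, adjusted p = 0.165 over all probe sets and 0.00339 with the filter) and -2.81 with centred arrays. The filter kept Ackr1 through its CD31+ values alone, its double-positive values all being under 5. The 6 genes together were less uniform, and their summed linear level ran from 7510 to 12900 on the double-positive and from 4980 to 31800 on the CD31+ arrays. The part of these venules in the values of Vwf was not tested.

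F8 had 9.72, 8.88 and 9.30 on the double-positive arrays and 5.08, 6.85 and 5.58 on the CD31+ arrays. Each double-positive value exceeded each CD31+ value by more than 2, and CD31+ replicate 2 again stood highest in its group. The means were 9.30 ± 0.424 and 5.84 ± 0.913 (SD, n = 3 each), which gave a difference of 3.46 (95% confidence interval 1.97 to 4.96, about 11-fold, limma, adjusted p = 0.127). F8 passed as higher with the filter (limma, adjusted p = 0.000775) and with the filter and centred arrays, at 2.79 (limma, adjusted p = 0.000761). Within pairs of arrays with the same number, F8 differed by 4.64, 2.02 and 3.72 and Vwf by -2.45, -4.28 and -2.14, so pair 2 had the smallest difference for F8 and the widest for Vwf.

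Factors V and VIII leave the endoplasmic reticulum with a cargo receptor made of Lman1 and Mcfd2. Mcfd2 had 8.67, 8.51 and 8.39 on the double-positive and 7.71, 7.50 and 7.72 on the CD31+ arrays, a small but even gap of 0.88 (limma, adjusted p = 0.0697). Its difference was 0.20 with centred arrays, within the general brightness of the double-positive arrays. Lman1 differed by 0.80 at its brightest probe set (limma, adjusted p = 0.535) and by 1.29 at the next (limma, adjusted p = 0.0551), while its dimmer probe sets differed by -0.50, -0.36 and 0.13. F5 itself was not detected. Both of its probe sets lay within 0.1 of the common minimum on all 6 arrays, and no difference can be seen there. Pecam1 also lay close to that minimum in cells sorted by CD31, so a failed measurement of F5 cannot be told from a low level.

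The proximal promoter of F8 is shown because F8 was, with Plat and Procr, among the genes with the widest gap between the gates, and that of Procr stands beside it for comparison. RefSeq promoter windows (GRCm38.p6, 300 bases around an annotated start) were found for 5 of the 9 genes, namely F8, F5, Procr, Tfpi and Tfpi2. Capitals mark GGAA on either strand, the core that ETS transcription factors of endothelium recognize. The F8 window lies at chrX:75379992-75380291 on the minus strand and the Procr window at chr2:155750967-155751266 on the plus strand, both written 5′ to 3′ along the gene.
F8: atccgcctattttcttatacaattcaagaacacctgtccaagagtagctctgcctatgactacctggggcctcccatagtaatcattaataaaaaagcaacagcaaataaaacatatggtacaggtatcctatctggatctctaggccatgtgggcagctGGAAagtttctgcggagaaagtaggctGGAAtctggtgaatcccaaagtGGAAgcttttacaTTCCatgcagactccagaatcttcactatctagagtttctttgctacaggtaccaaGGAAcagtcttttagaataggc
Procr: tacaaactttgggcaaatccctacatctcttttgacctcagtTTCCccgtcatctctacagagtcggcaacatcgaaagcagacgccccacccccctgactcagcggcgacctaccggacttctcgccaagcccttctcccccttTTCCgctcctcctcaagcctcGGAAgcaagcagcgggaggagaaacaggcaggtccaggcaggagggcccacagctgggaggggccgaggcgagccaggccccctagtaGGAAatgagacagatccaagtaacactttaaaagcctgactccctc

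The F8 window held 5 GGAA matches and that of Procr 4. Of all 32851 windows, 96.0% held at least 1 such match, 28.6% held at least 5 and 46.3% at least 4. Other motifs were searched on both strands, with letters chosen while the sequences were in view and with overlaps between motifs allowed. GATA had 3 matches in the F8 window (at least that many in 12.6% of all windows) and 0 in the Procr window. The AP-1 motif TGACTCA had 1 match in the Procr window, as in 5.20% of windows, and 0 in the F8 window. CACCC, bound by KLF factors, had 0 matches in the F8 window and 1 in that of Procr, with a match in 57.5% of all windows. The E-box CANNTG had 4 matches in the F8 window (at least that many in 6.49% of windows) and 1 in that of Procr. The F8 window was 42.3% GC and the Procr window 58.3%, with a median of 52.7% over all windows. A match is a description of letters and not of binding.

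Genes of the protein C pathway differed unequally. Procr was bright in both groups, with 12.13, 12.81 and 12.62 on the double-positive arrays and 9.35, 9.75 and 8.71 on the CD31+ arrays. The groups did not overlap, and the gap was 2.78, 3.06 and 3.91 within the pairs of arrays. The difference was 3.25 (95% confidence interval 2.31 to 4.18, 9.50-fold, limma, adjusted p = 0.0590), with means of 12.5 ± 0.351 and 9.27 ± 0.522 (SD, n = 3 each). Procr passed as higher with the filter (limma, adjusted p = 0.000263), and at 2.57 with the filter and centred arrays (limma, adjusted p = 0.000201). Its only probe set carries the suffix of sets whose probes can match more than 1 transcript, though the probe table used assigns it to Procr alone.

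Thbd had 8.05, 8.31 and 8.24 on the double-positive and 7.99, 7.14 and 7.33 on the CD31+ arrays. The groups did not overlap, but CD31+ replicate 1 came within 0.1 of the lowest double-positive value. The difference was 0.71 (95% confidence interval 0.020 to 1.41, limma, adjusted p = 0.535) and 0.04 with centred arrays (95% confidence interval -0.65 to 0.72 with the filter). Whether the gates differ in Thbd beyond the general brightness is not settled by an interval of this width.

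Protein S, encoded by Pros1, is the cofactor of activated protein C. Its values were 6.45, 7.04 and 6.47 on the double-positive and 5.12, 4.47 and 4.78 on the CD31+ arrays, with no overlap. The difference of 1.87 (limma, adjusted p = 0.0945) passed with the filter (limma, adjusted p = 0.00262) and at 1.19 with centred arrays (limma, adjusted p = 0.0250), although 2 of its CD31+ values lay under the filter's minimum of 5. Proc, the gene of protein C, which the liver makes, lay near the common minimum on every array.

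The inhibitors of the tissue factor pathway differed in their pattern. Tfpi had 4 probe sets that differed by 0.96, 1.64, 1.72 and -0.0011, from the brightest to the dimmest. At the brightest the values were 8.49, 8.73 and 8.72 on the double-positive and 7.09, 8.49 and 7.48 on the CD31+ arrays, and CD31+ replicate 2 reached the lower edge of the double-positive values (95% confidence interval of the difference -0.13 to 2.05, limma, adjusted p = 0.654). At the second probe set they were 7.59, 6.46 and 7.40 against 6.04, 5.39 and 5.09, and at the next 6.59, 6.74 and 6.28 against 4.16, 6.03 and 4.26, without overlap at either. With the filter these 2 passed as higher (limma, adjusted p = 0.0134 and 0.0251), while the brightest did not (limma, adjusted p = 0.0753), and the dimmer of the 2 was kept through its double-positive values, since only CD31+ replicate 2 reached 5 there. With the filter and the replicate number as a block all 3 passed (limma, adjusted p = 0.0270, 0.00185 and 0.00253, brightest first). With the filter and centred arrays none of the 3 passed (limma, adjusted p = 0.627, 0.0673 and 0.110). Their centred differences were 0.28, 0.97 and 1.04, with 95% confidence intervals of -0.52 to 1.08, 0.22 to 1.71 and 0.10 to 1.99. Beyond the general brightness, higher Tfpi values were thus not called at 5% FDR, though only the interval of the brightest probe set included 0. The filtered call of Tfpi was also lost when double-positive replicate 1 or 3 was left out, while that of Thbd was gained without CD31+ replicate 1 (limma, adjusted p = 0.0486). The dimmest probe set lay at 3.68 and 3.69, and a failed measurement there cannot be told from a low level.

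Tfpi2 was dim in both groups. It had 5.25, 4.90 and 4.68 on the double-positive and 5.46, 5.27 and 4.74 on the CD31+ arrays, which overlapped. The difference was -0.21 (95% confidence interval -0.92 to 0.49, limma, adjusted p = 0.724). It was -0.42 without CD31+ replicate 3, -0.37 without double-positive replicate 1, -0.081 without double-positive replicate 3 and -0.060 without CD31+ replicate 1. With the filter and centred arrays it was -0.89 and passed as lower (limma, adjusted p = 0.0317), so its call depends on the scaling. F3, the gene of tissue factor, lay at the common minimum on 5 arrays and at 3.05 on CD31+ replicate 3.

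**Figure D2:**
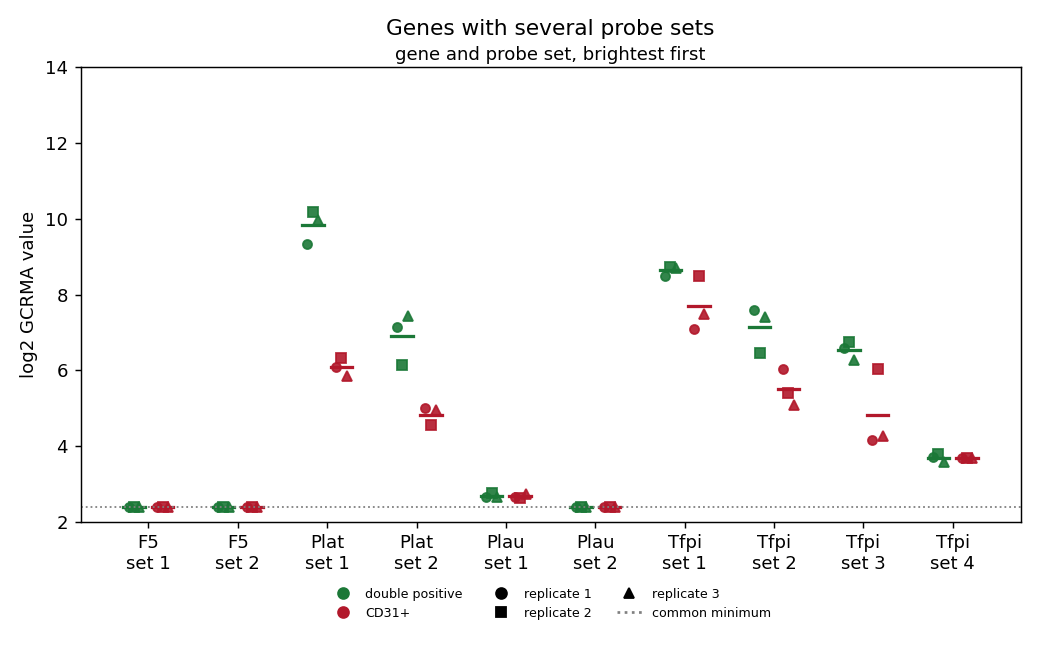
Log2 GCRMA values of every probe set of the 4 genes with more than 1, on each of the 6 arrays, with points for arrays, marker shapes for replicate numbers and bars for group means. Both probe sets of Plat and 3 of the 4 of Tfpi lie higher on the double-positive arrays, and all probe sets of F5 and Plau lie near the common minimum of 2.39.

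Of the activators of plasminogen, Plat was the gene with the widest gap of the 9 and Plau was not detected. Plat had 9.34, 10.18 and 9.96 on the double-positive and 6.09, 6.33 and 5.84 on the CD31+ arrays. The lowest double-positive value was about 3 above the highest CD31+ value, and the pairs differed by 3.25, 3.85 and 4.13. The means were 9.83 ± 0.434 and 6.09 ± 0.248 (SD, n = 3 each), a difference of 3.74 (95% confidence interval 3.00 to 4.48, 13.4-fold, limma, adjusted p = 0.0321). With the replicate block the adjusted p was 0.189 over all probe sets and 3.37e-06 with the filter, and leaving out any 1 of the 6 arrays raised it to between 0.0584 and 0.140 over all probe sets. With the filter the adjusted p without any 1 array stayed between 0.000269 and 0.00133. With the filter and centred arrays the difference was 3.06 (limma, adjusted p = 6.9e-05). The second Plat probe set had 7.15, 6.14 and 7.45 against 5.0, 4.54 and 4.94, a difference of 2.08 (limma, adjusted p = 0.177 over all probe sets and 0.00398 with the filter). That probe set was kept by the filter through its double-positive values, since only CD31+ replicate 1 reached 5 there.

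The 2 probe sets of Plau gave 2.63 to 2.75 and the common minimum of 2.39 on all arrays. Whether Plau was low or its measurement failed cannot be told from these values. Its receptor gene Plaur had 3.72, 4.02 and 5.26 on the double-positive and 3.48, 3.72 and 3.19 on the CD31+ arrays, a difference of 0.87 (limma, adjusted p = 0.659) that rests mostly on double-positive replicate 3, since without that array it was 0.40. Annexin A2 (Anxa2) and S100a10 form the cell surface complex that brings plasminogen and tissue-type plasminogen activator together. Anxa2 had 9.06, 8.92 and 8.86 on the double-positive and 7.14, 7.31 and 7.54 on the CD31+ arrays, and passed as higher at 1.62 (3.07-fold, limma, adjusted p = 0.0347). The call was lost with any 1 array left out (limma, adjusted p = 0.0563 to 0.147) and with the replicate block (limma, adjusted p = 0.245). It was also lost with trend and robust (limma, adjusted p = 0.0603), and it held at 0.94 with the filter and centred arrays. A dimmer Anxa2 probe set had means of 2.61 on the double-positive and 2.57 on the CD31+ arrays, and another lay at the common minimum on every array. At its brightest probe set S100a10 had 12.08, 12.26 and 11.77 against 10.15, 11.57 and 9.52, without overlap but with CD31+ replicate 2 near the double-positive values. The difference there was 1.62 (limma, adjusted p = 0.547, 0.0308 with the filter). Its dimmer probe sets differed by 0.88 and -0.11, and the groups overlapped at the latter.

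**Figure D3:**
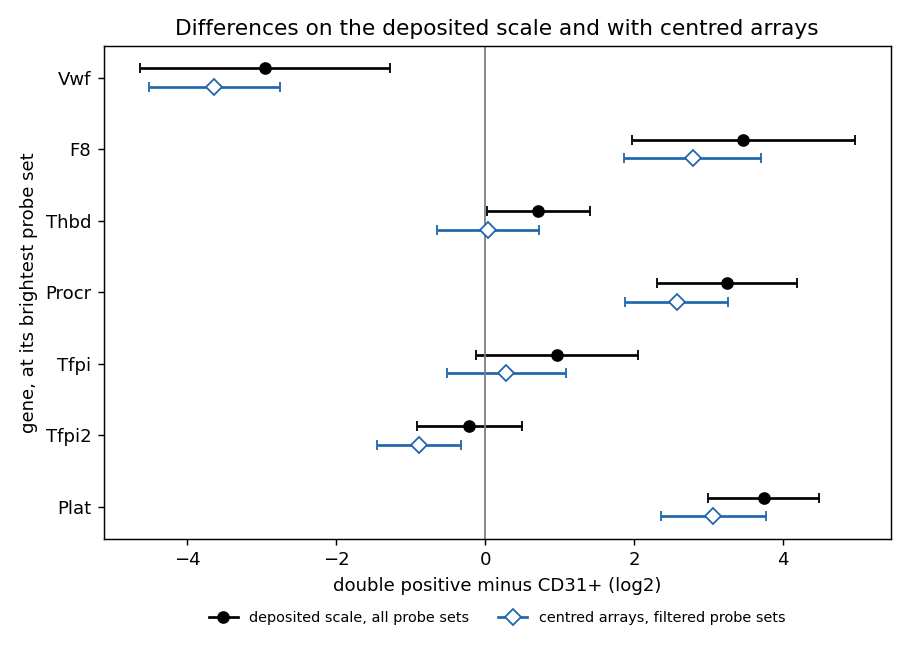
Log2 differences, double-positive minus CD31+, for the 7 genes with a group mean of at least 5, each at its brightest probe set, with 95% confidence intervals from limma. Filled circles give the deposited scale over all probe sets and open diamonds give centred arrays over the filtered probe sets. The intervals of Plat, Procr, F8 and Vwf stay clear of 0 on both. The interval of Tfpi includes 0 on both, that of Thbd only with centred arrays, and that of Tfpi2 only on the deposited scale.

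Groups that did not overlap were common on these arrays, which sets a scale for the counts. At the brightest probe set, 5 of the 7 genes that reached a mean of 5 had all double-positive values above all CD31+ values and 1 had them below. Among all 3984 genes with a mean of at least 5, 46.9% had them above and 5.50% below. Both shares are on the deposited scale, on which the double-positive arrays were brighter, and with the filter and centred arrays the shares called higher and lower were nearer to each other, at 13.9% and 10.3%.

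A wider list of 43 genes of haemostasis was followed beside the 9, of which 38 had probe sets of their own and were analysed here. In limma 1 of the 38 passed as higher, Anxa2, and 0 as lower, and by an unadjusted p under 0.05 these would be 8 and 0, beside 14.4% and 2.44% of all genes. The median difference of the 38 was 0.00028 and that of all genes 9.8e-05, since many lie at the common minimum. With the filter 9 remained in the test and 7 passed as higher (Mcfd2, Lman1, F2r, Pros1, Anxa5, Anxa2 and S100a10), beside the 36.0% of all filtered genes that did. Lman1 and F2r passed at their second probe sets only and not at their brightest (limma with the filter, adjusted p = 0.0805 and 0.143), and that probe set of Lman1 was kept through its double-positive values alone, its CD31+ values all being under 5. Without double-positive replicate 1 this count was 3, and without double-positive replicate 3 or CD31+ replicate 1 it was 4. With the filter and centred arrays 2 passed, Anxa2 and Pros1, beside 13.9% of all filtered genes. Among the coagulation factors and the genes of their processing, 0 of 18 passed (2 higher by an unadjusted p under 0.05 in limma). Among the anticoagulants, 0 of 9 passed (3 higher by an unadjusted p under 0.05), and among the genes of fibrinolysis 1 of 8 passed. Serpina10 apart, 18 genes of the list taken as products of the liver, fibrinogen and prothrombin among them, had log2 values from 2.39 to 3.28 over all probe sets and arrays, and 11 of them were within 0.1 of the minimum on every array at their brightest probe set. F2, the prothrombin gene, had 2.61 and 2.40, a difference of 0.21 (limma, adjusted p = 0.659).

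The thrombin receptor gene F2r was bright in both groups. Its brightest probe set had 13.57, 13.17 and 13.27 on the double-positive and 13.02, 12.86 and 12.41 on the CD31+ arrays, a difference of 0.58 (limma, adjusted p = 0.538) that was -0.10 with centred arrays. The second had 12.53, 11.97 and 12.17 against 11.30, 10.95 and 10.57, a difference of 1.29 (limma, adjusted p = 0.187). The related receptor genes F2rl2 and F2rl3 lay near the common minimum. Anxa5, whose product shields membrane lipids from clotting factors, differed by 1.28 (limma, adjusted p = 0.250) and by 0.60 with centred arrays. Vkorc1, which recycles vitamin K for the making of clotting factors, differed by 0.85 (limma, adjusted p = 0.659) and by 0.38 without double-positive replicate 1, and Plgrkt, a plasminogen receptor, by 0.31 (limma, adjusted p = 0.659), or -0.36 with centred arrays. Serpina10 had 4.23 ± 1.15 on the CD31+ and 2.66 ± 0.245 on the double-positive arrays (SD, n = 3 each), a difference of -1.57 (limma, adjusted p = 0.644) that was -0.93 without CD31+ replicate 1. Hs3st1, an enzyme of heparan sulfate, had 3.03 on the CD31+ and 3.19 on the double-positive arrays.

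**Figure D4:**
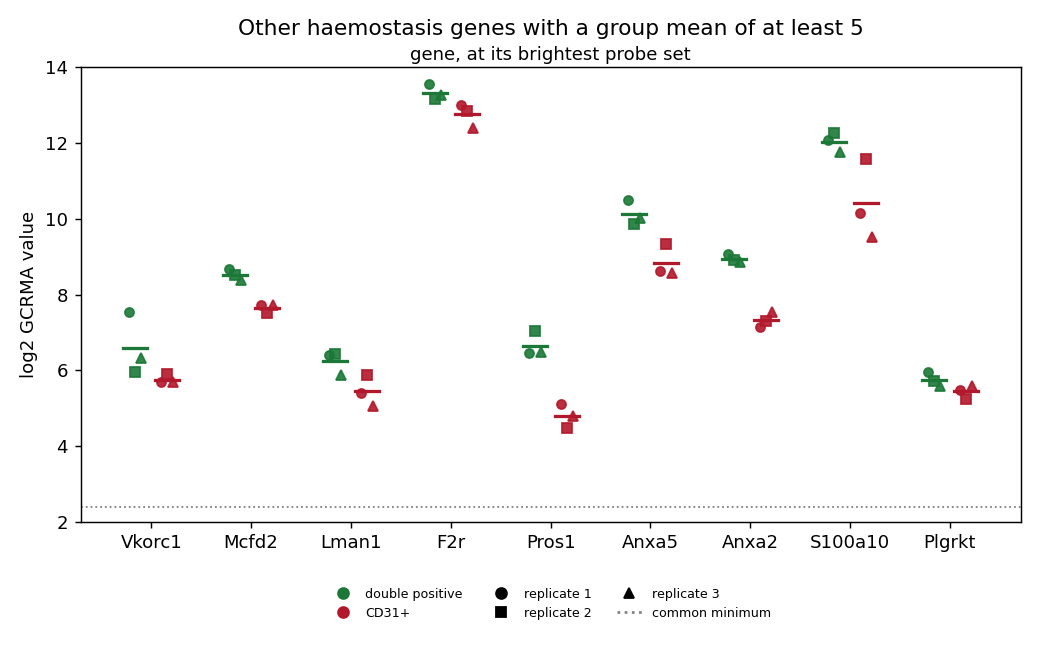
Log2 GCRMA values of the 9 further haemostasis genes with a group mean of at least 5, each at its brightest probe set, with points for the 6 arrays, marker shapes for replicate numbers and bars for group means. In 7 of the 9 genes all double-positive values lie above all CD31+ values (Lman1 and Plgrkt are the exceptions), as in 46.9% of genes with a mean of at least 5, and in S100a10 the CD31+ replicate 2 lies near the double-positive arrays.

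Other cells of LN also make some of these proteins. Platelets hold von Willebrand factor and factor V. Of 7 platelet markers, none passed in limma in either direction (1 higher, Itga2b, by an unadjusted p under 0.05), and Gp9, Gp1bb and Gp6 lay within 0.1 of the common minimum on all arrays, as did F5. Pf4 was bright in both groups, at 8.50 and 7.67, and the summed linear level of the list ran from 349 to 586 on the double-positive and from 123 to 358 on the CD31+ arrays. Of 6 macrophage markers 0 passed in limma (1 higher, Cd14, by an unadjusted p under 0.05), their summed linear level was 61.0 to 67.9 on the double-positive and 37.4 to 48.1 on the CD31+ arrays, and Cd68 was near the minimum on all arrays. Of 2 leukocyte markers, 0 passed in limma and 0 reached an unadjusted p under 0.05, and Ptprc had 2.67 and 3.72.

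Fibroblastic reticular cells share the LN stroma with endothelium. Of 6 of their markers 1 passed as higher, Thy1, and 0 as lower (1 and 4 by an unadjusted p under 0.05 in limma). With the filter 4 remained in the test. Of these, 1 passed as higher, Thy1, and 3 as lower, Col1a2, Col3a1 and Pdgfrb, beside 36.0% and 4.34% of all filtered genes. The filter kept Col1a2 and Pdgfrb through their CD31+ values alone and Thy1 through its double-positive values alone. Col1a2 had 3.34 on the double-positive and 6.45 on the CD31+ arrays, Col3a1 4.08 and 7.22, and Pdgfrb 3.97 and 6.89. Thy1 went the other way, with 6.61 on the double-positive and 3.58 on the CD31+ arrays. The summed linear level of the list, Thy1 included, was 134 to 190 on the double-positive and 194 to 674 on the CD31+ arrays, without overlap. Col1a1 lay within 0.1 of the minimum on 5 arrays. The part of any of these cells in the values of the 9 genes was not tested.

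CD31+ replicate 2 stood highest of the CD31+ arrays for Vwf, F8, Procr, Plat and the brightest Tfpi probe set, but not for Thbd, at 7.14, or Tfpi2. The lymphatic markers Mmrn1 and Lyve1 had 3.28 and 5.70 on that array against 5.08 and 3.72, and 6.08 and 5.51, on CD31+ replicates 1 and 3, while Pdpn and Itga9 were highest there, at 3.75 against 3.69 and 3.29, and at 3.06 against 2.89 on both. It was thus the highest CD31+ array for 2 of the 7 lymphatic markers at their brightest probe sets. Without it the difference of F8 was 3.97, that of Vwf -2.41 and that of the brightest Tfpi probe set 1.36.

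The genes with the most similar profile over the 6 arrays were named for each of the 7 detected genes by Pearson's r, as a description without a test, because with 2 groups of arrays any gene with a like gap correlates highly. Vwf was most like Epas1, which encodes a hypoxia-inducible factor of endothelium, Tcim and Mndal, at 0.988, 0.988 and 0.987. F8 was most like Stk24, Golga7 and Robo1, a guidance receptor gene, at 0.995, 0.993 and 0.992. Procr was most like Stab1, which encodes a scavenger receptor, at 0.999, and then like Sos2 and Apold1, at 0.996 each. Plat was most like Hipk3 at 0.998 and shared Apold1 and Sos2 with Procr, at 0.997 and 0.996. For Thbd these were Rap1b, Usp25 and Elf1 at 0.987, 0.985 and 0.982, for Tfpi Uba7, Psap and Dbp at 0.978, 0.974 and 0.971, and for Tfpi2 Niban1, Prkch and Dym at 0.975, 0.959 and 0.958. Of 3977 genes compared, 340 had an r over 0.95 with Procr, 284 with Plat, 157 with F8 and 48 with Vwf.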

How the data were processed

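Cells sorted from LN were measured on 6 arrays, 3 per gate. The authors amplified and biotin-labelled the RNA, assessed quality with pairwise plots of replicate arrays and applied GCRMA, so the deposited values are log2 abundances per probe set. Versions of their tools are not given in the sources used here. Of 45101 probe sets 64 controls were left out. Of the others, 34945 had 1 gene in the platform table, 932 several and 9160 none, and symbols were updated through a RefSeq table (34741 IDs matched). At the common minimum, within 0.1 on all arrays, lay 37.4% of probe sets, where no difference can be measured. A failed measurement cannot be told from a low level there. The small number of arrays limits the precision.

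Groups were compared by lmFit and eBayes without a block (limma 3.58.1, R 4.3.3) over all 45037 probe sets with Benjamini-Hochberg adjustment at 5% FDR, and a gene counted once if any probe set of its own passed. Each gene was described at its brightest probe set. Prior degrees of freedom were 0.356 over all probe sets and 4.92 with the filter (log2 value of 5 or more on 3 or more arrays). Of the wider list, called genes and otherwise the 4 with the smallest p per sublist were named, and for each detected gene the 3 genes with the highest correlation; any other gene was named with its values in view. The members and lists were chosen with earlier results of these data known. The test was tried on simulated data. Alternatives were the filter, centring, a block for replicate number, leaving out each array, trend and robust, array weights and averaged probe sets.

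Over 5764 bright probe sets, arrays with the same number deviated together from the group means (correlations of 0.341, 0.475 and 0.418), and the series describes its samples as paired, so the numbers were taken to pair the arrays. The paper describes its samples as independent, and the main fit had no block. P-values of the main fit therefore treat the arrays as unpaired, and variation shared within pairs stays in the spread they measure. Only the fits with a block for replicate number take the pairing into account.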

Additional observations from a re-analysis of the deposited data

How the results depend on the processing

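The number of called genes depended on how many dim probe sets entered the test. Of the 9 genes, those called higher numbered 0 with the replicate block, 4 with the filter, 4 with the filter and the block, 4 with the filter, trend and robust, 4 with centred arrays, 3 with the filter and centred arrays and 2 with probe sets averaged per gene, and those called lower numbered 1, 1, 1, 5 and 2 from the filter to the filter with centred arrays. Of the 38 wider genes, the number called higher was 0 with the block, 0 with trend and robust, 7 with the filter (also with the block or with trend and robust), 6 with centred arrays, 2 with both and 3 with averaged probe sets, and 29 were called lower with centred arrays. Over all genes those higher were 4 with the block, 1518 with the filter, 2074 with filter and block, 1420 centred, 585 filtered and centred, 127 with trend and robust, 407 averaged and 1550 filtered with trend and robust, and those lower were 0, 183, 221, 15638, 434, 83 (averaged) and 189 (filtered with trend and robust). Centring without the filter moves probe sets at the common minimum by -0.68 with hardly any spread. These probe sets also set the spread assumed for all others, so its calls, higher or lower, carry no information.

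The differences of Vwf (-2.96), F8 (3.46) and Procr (3.25) passed with the filter, alone, with the block and with trend and robust. They also passed at -3.64, 2.79 and 2.57 with the filter and centred arrays. Procr also passed with averaged probe sets. Tfpi (0.96) passed with filter and block, and Tfpi2 at -0.89 with the filter and centred arrays. Plat (3.74) did not pass with the replicate block (adjusted p = 0.189, limma). With centred arrays the sign turned for F5 (-0.68), Plau (-0.66), F2 (-0.47), F2r (-0.10), F2rl3 (-0.67), Hs3st1 (-0.51) and Plgrkt (-0.36), and with array weights for Plau (-0.00034).

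Leaving out 1 array, over all or over filtered probe sets, gave 0 to 5 of the 9 genes higher and 0 to 1 lower, 0 to 6 wider genes higher, and 36 to 1648 higher and 5 to 196 lower over all genes. The differences ran from -3.47 to -2.41 (Vwf), 3.09 to 3.97 (F8), 0.54 to 0.97 (Thbd), 2.97 to 3.49 (Procr), 0.66 to 1.36 (Tfpi), -0.42 to -0.060 (Tfpi2), 3.57 to 3.98 (Plat) and -0.021 to 0.046 (Plau). The filter together with trend and robust, or with arrays left out, was chosen after seeing the data. F5 and Plau have no value with the filter. With 4 residual degrees of freedom the p-values move strongly with the spread assumed for dim probe sets, and genes at the common minimum show no difference that could be measured.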
